A study of Mus musculus with 6 samples.

Results

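The genes described here are 10 genes of lipid handling that answer to the nuclear receptors PPAR-gamma and LXR, or encode one of them: Pparg, Angptl4, Fabp4, Fabp5, Cd36, Lpl, Plin2, Abca1, Abcg1 and Nr1h3. They were taken by symbol from a table of array intensities, out of 22180 genes with a probe set of their own, and all 10 passed the filter on dim genes that left 18458 genes to test. The samples are 6 preparations of mouse cells that were sorted by flow cytometry as CD11b+CD11c-Ly6Chi inflammatory monocytes, 3 from tumor tissue and 3 from spleen. Every mouse had been given Th9 cells, a helper T cell type, 10 days earlier, so that treatment is common to both groups and its effect cannot be read from this comparison. The strain field of the labels reads Th9, which is no mouse strain, and the sources used here give no strain, age, tumor type or further treatment. They also do not say if each sample was taken from its own mouse, so the p-values speak for the scatter of these arrays, part or all of which may be technical.

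PPAR-gamma is a nuclear receptor that binds DNA as a pair with the retinoid X receptor and is switched on by fatty acids and their oxidised derivatives. In macrophages and dendritic cells it is known for raising genes that take up, carry and store fatty acids. LXR, of which Nr1h3 encodes the alpha form, also pairs with the retinoid X receptor, answers to oxidised cholesterol, and raises the transporters that move cholesterol out of the cell.

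Each sample was measured on 1 Mouse Gene 2.0 ST array. Levels are given as log2(intensity + 1), changes as tumor minus spleen on the same scale ± SE, and a gene is called when limma's p, adjusted over all genes tested by the Benjamini-Hochberg method, lies under 0.05. With 3 arrays a group the smallest p of an exact test is 0.1, and the number of arrays limits the precision. The arrays numbered 3 stood apart from those numbered 1 and 2 in both groups, with medians of 4.73 and 4.76 against 4.50 to 4.51, so the difference within each number is shown beside the group difference.

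Among the marker genes of Ly6C-high monocytes 4 of 10 tested were called higher in tumor (Ms4a4c by 4.67 ± 0.17, Vcan by 2.44 ± 0.16, Ly6c2 by 1.48 ± 0.31 and Plac8 by 0.68 ± 0.15) and 3 lower (Ccr2, -0.93 ± 0.15, Itgam, -0.85 ± 0.17, and Fn1, -0.78 ± 0.16). The shares over all genes tested were 5.73% higher and 4.85% lower. Chil3 (-0.12), F13a1 (-0.04) and Ly6c1 (0.36) were not called. Ly6c2, a gene behind the Ly6C stain, stood at 6.81 ± 0.58 in spleen and 8.29 ± 0.40 in tumor (SD, n = 3), and the call was lost without spleen 1 or spleen 2 (limma adjusted p up to 0.0711). Those of Itgam and Fn1 (without spleen 2, tumor 1 or tumor 2, up to 0.084) and Plac8 (without any 1 of the arrays numbered 1 or 2, up to 0.119) were lost too. Itgax, which encodes the CD11c that the sort selected against, stood at 11.16 ± 0.12 in spleen and 10.31 ± 0.17 in tumor, and its call was lost without tumor 1 (limma adjusted p = 0.0594). Ranked among the spleen levels of all genes tested, Itgax lay at percentile 98.9, Itgam at 96.3, Ccr2 at 64.4 and Ly6c2 at 63.8. The RNA of Itgax was thus high in cells sorted as CD11c-, and the reason was not tested. From the dendritic cell and macrophage lists read below, H2-Ab1, C1qb, Mrc1 and Adgre1 lay at percentiles 100, 98.7, 98.3 and 97.5. Xcr1, Cd163 and Timd4 of these lists lay at 29.3, 27.3 and 26.8. Of the monocyte markers Chil3 lay at 99.9 and Ly6c1 at 4.51. The name inflammatory monocytes is that of the sort, and the identity of the cells was not tested.

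Pparg and 2 genes known as targets of its receptor, Angptl4 and Fabp4, were lower on the tumor arrays, by 3.44-fold, 5.60-fold and 1.94-fold. Fabp5, Cd36, Lpl and Plin2 were not called in this fit, and neither were Nr1h3, Abca1 and Abcg1, the LXR genes. Pparg, Angptl4 and Fabp4 were the 3 genes called lower of the 10, against 4.85% of all genes tested. Of the 10 genes 0 were called higher, against 5.73% of all genes tested, and 0 were higher at an unadjusted p under 0.05 in the same limma fit. The 10 differences had a median of -0.43, beside a median of -0.05 over all genes tested. The difference was below 0 in 8 of the 10 genes, against 58.6% of all genes, and for these 8 it was below 0 within each of the 3 array numbers, against 33.0% of all genes. In 7 of the 10 genes all 3 tumor values lay below all 3 spleen values, which held for 15.5% of all genes tested, and the reverse held for 0 of the 10, against 9.81%. When the fit took the array number as a block, 6 of the 10 genes were called lower, against 17.3% of all genes, with Fabp5, Cd36 and Lpl added, and 0 higher, against 11.7% of all genes. With the 4 arrays numbered 1 and 2 alone, 5 of the 10 were called lower (8.39% of all genes) and 1, Nr1h3, was called higher (7.51% of all genes). In sorted bulk samples a change of RNA per cell and a change in the share of cells that hold it cannot be told apart.

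**Figure D1:**
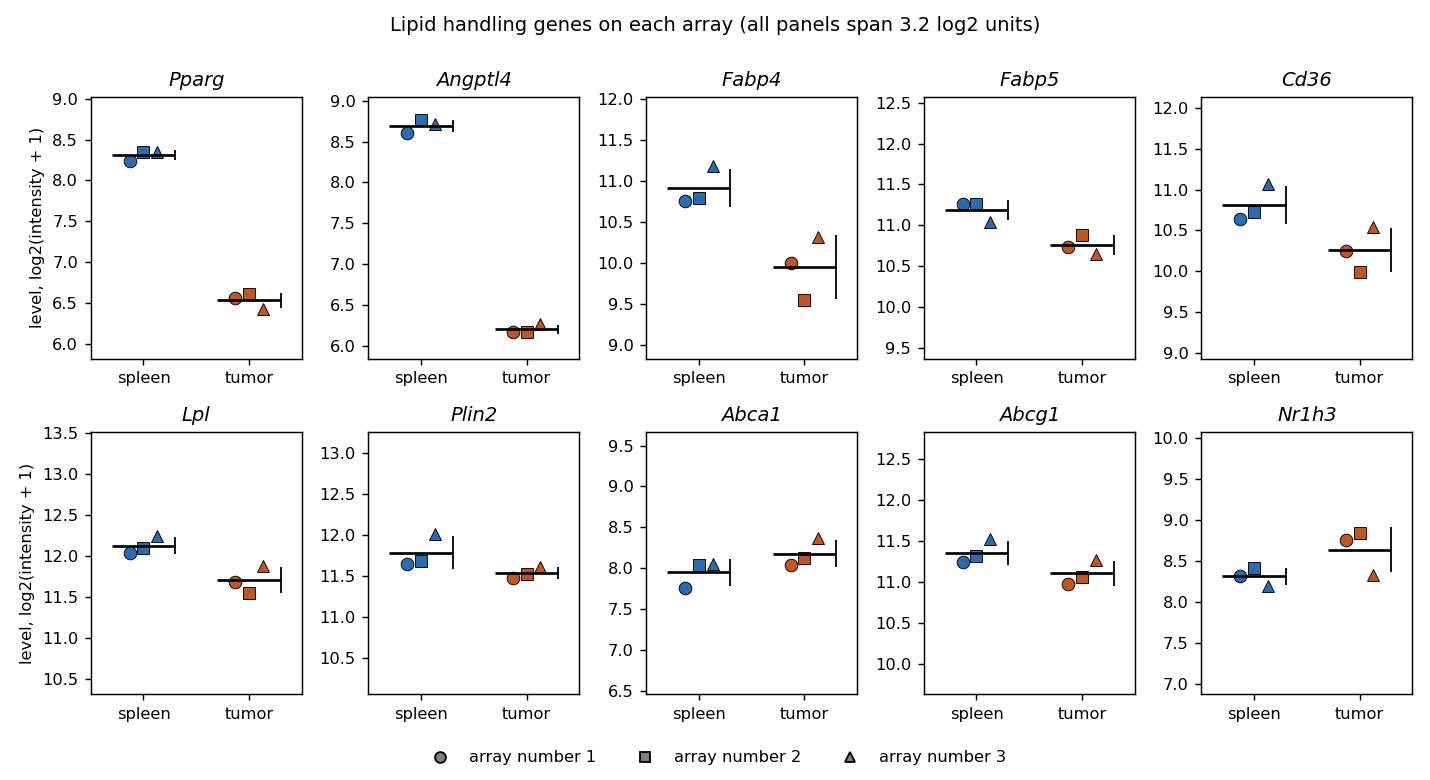
Level of each of the 10 genes on each array as log2(intensity + 1), with spleen in blue and tumor in orange, the marker shape giving the array number, the horizontal line the mean and the vertical line 1 SD to either side (n = 3). The groups lie far apart for Pparg and Angptl4, are separate but close for Fabp4, Fabp5, Cd36, Lpl and Plin2, and overlap for Abca1, Abcg1 and Nr1h3.

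Pparg (Entrez gene 19016, probe set 17461942) encodes the receptor itself. Its level was 8.24, 8.35 and 8.35 on the spleen arrays 1 to 3, and 6.56, 6.61 and 6.43 on the tumor arrays 1 to 3, or intensities of 302, 326.1 and 324.5 against 93.5, 96.7 and 85.3. The groups did not overlap. Pparg fell by 1.78 ± 0.14, which is 3.44-fold (limma adjusted p = 9.3e-05), and stood 21st from the bottom among the 18458 differences. The difference was -1.68, -1.74 and -1.92 within the numbers 1, 2 and 3. The call held without any 1 of the 6 arrays.

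Rxra, which encodes the alpha form of the retinoid X receptor, the partner of PPAR-gamma and LXR, fell as well. Its level was 7.71, 8.15 and 8.37 in spleen and 6.65, 6.87 and 6.94 in tumor, a difference of -1.26 ± 0.20 (limma adjusted p = 0.0048). The other nuclear receptors of this group were not called, with Rxrb at -0.76 ± 0.22 (adjusted p = 0.0701), Ppard, the delta form of PPAR, at -0.83 ± 0.25 (adjusted p = 0.0798) and Ppara at 0.23 ± 0.26. Rxrb and Ppard were called lower with the block (adjusted p = 0.00403 and 0.00129). The coactivators and the corepressor Nrip1 that were tested had differences from -0.36 to 0.37. In all, 1 of 11 tested partners and coregulators was called lower and 0 higher (none higher at an unadjusted p under 0.05 by limma), with a median difference of -0.22. Over all genes tested 4.85% were called lower and 5.73% higher, so the count of 1 lies near that share. With the block 4 were called lower and 2 higher, the coactivator genes Ncoa1 and Med1, against 17.3% and 11.7% of all genes.

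Angptl4 (Entrez gene 57875, probe set 17343628) encodes a secreted inhibitor of lipoprotein lipase and is among the most responsive targets of the PPAR receptors in many tissues. It had the largest difference of the 10 genes. Its level was 8.61, 8.76 and 8.71 on the spleen arrays and 6.17, 6.17 and 6.27 on the tumor arrays, where numbers 1 and 2 held the same deposited value of 71.2. In intensity the spleen arrays read 388.9, 431.9 and 417.6, and the tumor arrays lay between 71.2 and 76.2. Angptl4 fell by 2.49 ± 0.14, or 5.60-fold (limma adjusted p = 1.3e-05), and its difference ranked 4 from the bottom among the 18458 genes tested. The call held without any 1 of the 6 arrays. Within the numbers 1, 2 and 3 it was -2.43, -2.58 and -2.44.

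Fabp4 (Entrez gene 11770, probe set 17404091) and Fabp5 (16592, 17548238) encode cytoplasmic proteins that carry fatty acids through the cell, and Fabp4 is a classical PPAR-gamma target in fat cells and macrophages. Both lie on chromosome 3 with 2 other protein-coding genes, Pmp2 and Fabp9, between them. Fabp4 read 10.76, 10.79 and 11.18 in spleen and 10.00, 9.54 and 10.32 in tumor. The groups were separate, and tumor 2 was the lowest array. Fabp4 fell by 0.96 ± 0.22, or 1.94-fold (limma adjusted p = 0.029). The Fabp4 call was lost without any 1 of spleen 1, spleen 2, spleen 3, tumor 1 and tumor 2, with adjusted p between 0.0643 and 0.103 and differences between -1.03 and -0.75.

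Fabp5 differed by less. It read 11.26, 11.26 and 11.04 in spleen and 10.74, 10.88 and 10.65 in tumor, so that the lowest spleen array still lay above the highest tumor array. The difference was -0.43 ± 0.15 (1.35-fold) and was not called (limma adjusted p = 0.119), but it was called with the array number as a block (adjusted p = 0.0107) and among the numbers 1 and 2 alone (adjusted p = 0.0426). Fabp5 has 4 probe sets of its own, and the other three differed by -0.49, -0.27 and -0.43. Fabp5 has near copies in the genome, and signal from them cannot be told apart.

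Cd36 (Entrez gene 12491, probe set 17445715) encodes the scavenger receptor that brings in long-chain fatty acids and oxidised LDL, and Lpl (16956, 17501633) the enzyme that frees fatty acids from lipoprotein triglyceride. Cd36 read 10.64, 10.72 and 11.07 in spleen and 10.25, 9.99 and 10.54 in tumor. The groups did not overlap, though tumor 3 lay close under spleen 1. Its difference of -0.55 ± 0.19 (95% interval -0.99 to -0.11) was not called (limma adjusted p = 0.129). With the array number as a block it was called (adjusted p = 0.00618), while among the numbers 1 and 2 alone it was not (adjusted p = 0.0632).

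Lpl read 12.04, 12.10 and 12.24 in spleen against 11.69, 11.56 and 11.88 in tumor. The groups were separate, with intensities from 4207 to 4838 in spleen and from 3009 to 3767 in tumor. Its difference was -0.42 ± 0.15 (1.34-fold, limma adjusted p = 0.139), called with the block (adjusted p = 0.0139) and among the numbers 1 and 2 alone (adjusted p = 0.043). Lpl has 2 probe sets, and with their mean the difference was -0.35 and not called (limma adjusted p = 0.7). It was also not called with any single array left out (limma adjusted p from 0.0837 to 0.384). Quantile normalization and median centring of the arrays and cyclic loess each brought both Cd36 and Lpl under the threshold (adjusted p between 0.00903 and 0.0444), with differences of -0.63 to -0.36.

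Plin2 (Entrez gene 11520, probe set 17426981) encodes perilipin 2, the coat protein of lipid droplets in macrophages. It read 11.64, 11.68 and 12.01 in spleen and 11.47, 11.52 and 11.61 in tumor. The tumor arrays lay just under the spleen arrays, tumor 3 being the nearest. The difference of -0.24 ± 0.16 was not called with or without the block (limma adjusted p = 0.47 and 0.109), and its 95% interval ran from -0.60 to 0.11.

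On the LXR side, Nr1h3 (Entrez gene 22259, probe set 17388177) encodes LXR-alpha. It read 8.32, 8.41 and 8.20 in spleen and 8.76, 8.84 and 8.32 in tumor, where tumor 3 lay among the spleen values and the other two above them. The difference was 0.33 ± 0.18 (95% interval -0.08 to 0.73, limma adjusted p = 0.359). Within the numbers it was 0.43, 0.43 and 0.13, and with the numbers 1 and 2 alone Nr1h3 was called higher (adjusted p = 0.0418), while the block left it just outside (adjusted p = 0.0505).

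Abca1 (Entrez gene 11303, probe set 17425301) and Abcg1 (11307, 17335770) encode the transporters that hand cholesterol to apolipoprotein A-I and to HDL, and both are standard LXR targets in macrophages. Abca1 read 7.76, 8.04 and 8.05 in spleen and 8.04, 8.13 and 8.37 in tumor, and tumor 1 overlapped the upper spleen arrays. The Abca1 difference was 0.23 ± 0.16 (95% interval -0.14 to 0.60, limma adjusted p = 0.526). Abcg1 read 11.24, 11.32 and 11.52 in spleen and 10.98, 11.07 and 11.27 in tumor, so that tumor 3 lay just above spleen 1. The Abcg1 difference was -0.25 ± 0.16 (95% interval -0.61 to 0.10, limma adjusted p = 0.449), and it was nearly the same within each number, at -0.26, -0.25 and -0.25. Neither transporter was called with the block (adjusted p = 0.121 for Abca1 and 0.0734 for Abcg1).

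**Figure D2:**
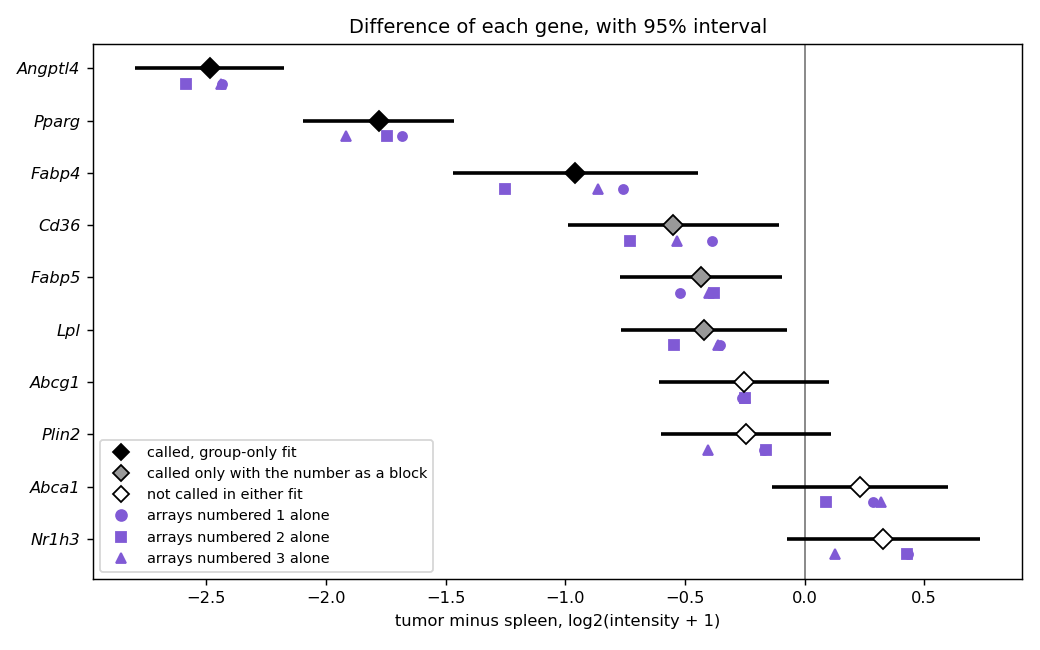
Tumor minus spleen on the log2(intensity + 1) scale for each gene, with the diamond at the difference of the group-only fit (black where called, grey where called with the block and not without it, white where called in neither), the line its 95% interval, and small markers for the difference within each array number. Angptl4 (-2.49) and Pparg (-1.78) lie far to the left, Fabp4 (-0.96) follows, and the intervals of Plin2, Abcg1, Abca1 and Nr1h3 cross 0.

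Promoter sequence was at hand for 5 of the 10 genes, from RefSeq on the build GRCm38.p6, as windows from 250 bases before to 50 after a start site (8 windows in all). Nuclear receptors of this class bind the half-site AGGTCA, mostly as 2 copies in a row. The half-site, on either strand, was present in 4 of the 8 windows and in 16.3% of all 32851 promoter windows. Several of the 8 windows, and of the 4 with the half-site, are starts of the same gene, Pparg, so they are not independent. Angptl4 and Fabp4, which were called lower, had no window. The stretches below show where it lies in Pparg, which fell, and in Cd36 and Plin2, which were not called, with the half-site in capitals and its neighbouring bases. Each is written 5' to 3' along the gene's strand, so TGACCT is the half-site on the opposite strand.
Pparg, first start, chr6:115361091-115361146, plus strand, half-site beginning 28 bases before the start: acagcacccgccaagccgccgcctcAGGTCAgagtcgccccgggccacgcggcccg
Pparg, second start, chr6:115362315-115362370, plus strand, 9 bases before the start: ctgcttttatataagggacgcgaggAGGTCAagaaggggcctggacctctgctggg
Cd36, chr5:17836094-17836146, minus strand, 228 bases before the start: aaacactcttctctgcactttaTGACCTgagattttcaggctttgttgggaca
Plin2, chr4:86670247-86670302, minus strand, 218 bases before the start: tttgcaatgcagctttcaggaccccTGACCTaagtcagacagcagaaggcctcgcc

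The exact double sites, AGGTCA repeated after 1 base of any kind for PPAR-gamma and after 4 for LXR, on either strand, were in 0 of the 8 windows and in 0.0396% and 0.0152% of all windows. A relaxed form of the LXR site, GGTNA repeated after 5 bases of any kind (N is any base), was chosen after the Abca1 sequence had been seen. Its match in the Abca1 window was thus fixed in advance and cannot be weighed against its share of all windows, 0.718%. It lay in 1 of the 8 windows, that of Abca1. It is shown, in capitals and as the opposite strand's match, because it is the 1 match in the 8 windows.
Abca1, chr4:53159923-53159987, minus strand, beginning 67 bases before the start: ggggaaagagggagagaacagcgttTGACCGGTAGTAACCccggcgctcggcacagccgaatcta
A relaxed PPAR-gamma site, GGTNA repeated after 2 bases of any kind, was in 0 of the 8 windows and in 1.1% of all. The windows of Nr1h3 and the third start of Pparg held none of these letters. A match describes the sequence only, and sites farther from the start were not searched.

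Other genes of the pathway were read from 7 lists with 86 tested genes between them, of which 6 were called higher and 10 lower, with a median difference of -0.16. Over all genes tested 5.73% were called higher and 4.85% lower, or 11.7% and 17.3% with the block, and the counts of the lists are to be read beside these shares. Counts such as 1 of 20 or 1 of 11 lie near them. Upstream of Pparg in myeloid cells, 1 of 10 genes was called higher and 1 lower (1 and 3 with the block), with a median of -0.22. Cebpa, a transcription factor that drives Pparg in fat and myeloid cells, fell by 2.14 ± 0.15, from 8.94, 8.93 and 8.74 in spleen to 6.58, 6.86 and 6.75 in tumor (limma adjusted p = 4.9e-05). Stat5a, which acts behind the GM-CSF receptor, rose by 0.78 ± 0.15 (adjusted p = 0.0106), and its call was lost without spleen 1 or without tumor 1 (adjusted p = 0.0565 in both cases). The GM-CSF receptor chains Csf2ra, Csf2rb and Csf2rb2 stood at -0.26, -0.19 and -0.26 and were not called.

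Among enzymes that make receptor ligands or act on oxidised cholesterol, 1 of 8 was called higher and 0 lower (also 0 lower in limma at p under 0.05 unadjusted), with a median of -0.04 (1 and 1 with the block). That gene was Ch25h, cholesterol 25-hydroxylase, whose product 25-hydroxycholesterol is a ligand of LXR and a brake on sterol synthesis. Ch25h read 8.36, 8.53 and 8.57 in spleen and 11.85, 11.80 and 11.76 in tumor. It rose by 3.32 ± 0.14, or 9.97-fold (limma adjusted p = 3.7e-06), the largest difference in size among the 86 tested pathway genes in this fit. Ch25h has 2 probe sets, and with their mean it rose by 1.94 (adjusted p = 7.8e-05).

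Other targets of the PPAR receptors went both ways, with 3 of 20 called higher, 1 lower and a median of -0.06 (6 higher and 4 lower with the block). Hcar2, a receptor for nicotinic acid and ketone bodies that restrains lipolysis, rose by 1.48 ± 0.18 (limma adjusted p = 0.00137). Hilpda, a lipid droplet protein that inhibits the lipase ATGL and also answers to hypoxia, rose by 0.76 ± 0.15 (adjusted p = 0.0132). Slc25a20, the carnitine carrier of mitochondria, rose by 0.66 ± 0.17 (adjusted p = 0.0408). Acadvl, which starts the oxidation of very long chain fatty acids, fell by 0.52 ± 0.13 (adjusted p = 0.0433). Pdk4, a further textbook target, had a difference of -1.21 ± 0.38 that was not called (adjusted p = 0.0936) but was called with the block (adjusted p = 1.6e-04); its 3 tumor values lay below its 3 spleen values. The calls of Hilpda (without any 1 of spleen 1, spleen 2 and tumor 2, adjusted p up to 0.0808), Slc25a20 (without any array but spleen 3, up to 0.163) and Acadvl (without any 1 array, up to 0.173) were lost when arrays were left out. The Acadvl call was also lost with quantile normalization, cyclic loess and the trended and robust prior (adjusted p of 0.0622, 0.12 and 0.0593).

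Other LXR targets had 2 of 14 members called lower and 0 higher (0 higher at an unadjusted p under 0.05 by limma), with a median of -0.23. Fasn, the fatty acid synthase, fell by 1.13 ± 0.23 (adjusted p = 0.017), and Pltp, which transfers phospholipids between lipoproteins, by 0.87 ± 0.21 (adjusted p = 0.0358). Srebf1, the LXR target that drives fatty acid synthesis genes, stood at -0.00 ± 0.15, Mylip, which degrades the LDL receptor, at -0.26 ± 0.14, and Apoe, a cholesterol acceptor, at -0.61 ± 0.22 (adjusted p = 0.138, and 0.00281 with the block). With the block 6 of the 14 were called lower and 0 higher. The Fasn call was lost without any 1 of spleen 2, tumor 1 and tumor 2 (limma's adjusted p reaching 0.0772), and that of Pltp without any array but tumor 3 (up to 0.157).

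In the list of lipid droplet and lipolysis genes 2 of 17 were called lower and 1, Hilpda, higher, with a median of -0.16 (6 lower and 1 higher with the block). Plin3, a second droplet coat protein of the family of Plin2, fell by 1.37 ± 0.17, from 9.51 ± 0.13 to 8.14 ± 0.25 (SD, n = 3, limma adjusted p = 0.00144). Nceh1, a hydrolase of cholesterol esters, fell by 0.95 ± 0.19 (adjusted p = 0.0147), a call lost without tumor 1 or tumor 2 (up to 0.0746) and with the mean of its probe sets (-0.50, adjusted p = 0.492). The Plin3 call held without any 1 array. Perilipins known from fat cells, Plin1 and Plin4, stood at -0.20 ± 0.14 and 0.18 ± 0.48.

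In the list of lipid uptake and lipoprotein receptors 3 of 11 were called lower and 1 higher, with a median of -0.25 (5 lower and 3 higher with the block). Slc27a1, a fatty acid transporter, fell by 1.10 ± 0.24 (adjusted p = 0.0231), Scarb1, the HDL receptor, by 0.95 ± 0.15 (adjusted p = 0.00585) and Npc1, which lets cholesterol leave the lysosome, by 0.83 ± 0.15 (adjusted p = 0.00903). Msr1, a scavenger receptor for modified LDL, rose by 0.95 ± 0.21 (adjusted p = 0.0212), opposite to the scavenger receptor Cd36, whose difference was -0.55. Olr1, a further receptor for oxidised LDL, had a difference of 0.67 ± 0.18 that just missed the threshold (adjusted p = 0.0545) and was called with the block (adjusted p = 0.00248). Npc1 (without either of spleen 2 and tumor 1, up to 0.056, and -0.30 with the mean of its probe sets, adjusted p = 0.588), Msr1 (without any 1 of the arrays spleen 1, spleen 2 and tumor 1, up to 0.0886) and Slc27a1 (without any array but tumor 3, up to 0.106) lost their calls.

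**Figure D3:**
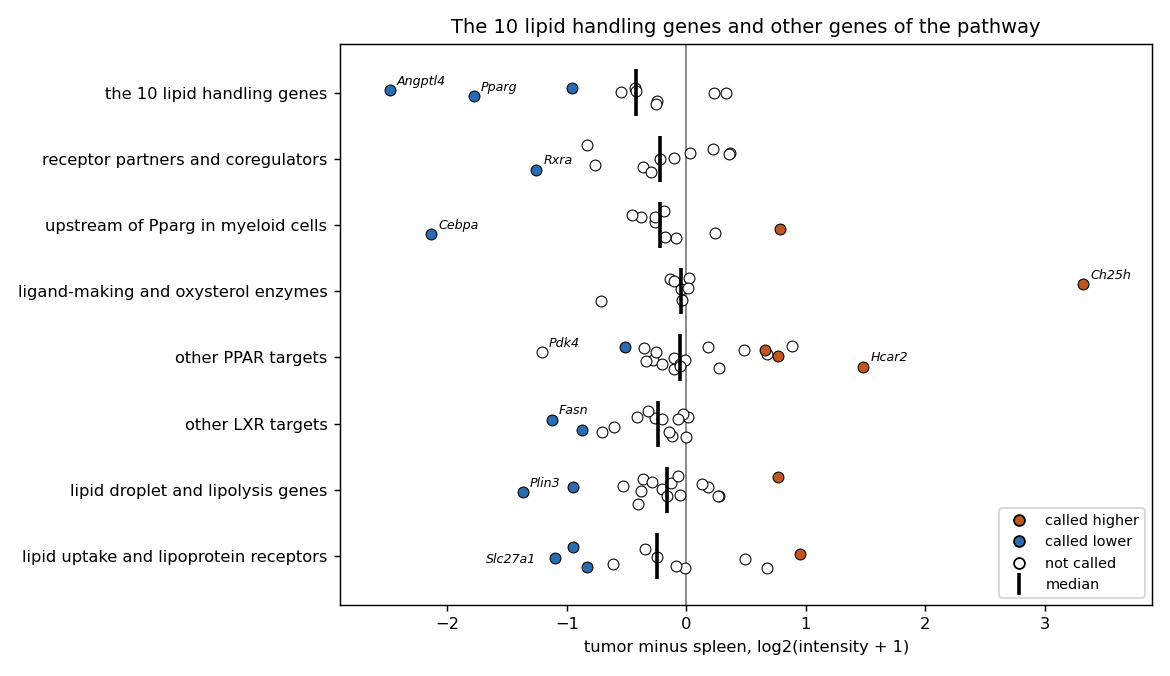
Tumor minus spleen on the log2(intensity + 1) scale for the 10 genes and for each list of other pathway genes, 1 point per tested gene, filled where called (orange higher, blue lower), with a bar at the list's median; a gene on 2 lists is drawn in both. Medians lie between -0.43 and -0.04, and the points beyond 1 in size are named.

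Fabp4, Cd36, Lpl and Pparg are also genes of fat cells, and Fabp4 and Cd36 of small blood vessels, so markers of those cells were read on the same arrays. Of 7 adipocyte markers tested, 0 were called in either direction (0 also at an unadjusted p under 0.05 by limma), and their mean level lay between 4.33 and 4.45 on the spleen arrays and between 4.28 and 4.38 on the tumor arrays, about the lower quartile of all genes tested (4.42). Cidec, Retn, Plin1 and Adig, the brightest and most changed of them, had differences of -0.06, 0.04, -0.20 and -0.13. Adipoq, the adipocyte hormone adiponectin, stood at 4.02 ± 0.15 in spleen and 3.96 ± 0.15 in tumor. Of 8 endothelial markers 1 was called higher and 1 lower, against 5.73% and 4.85% of all genes tested. Their mean level lay between 5.41 and 5.68 in spleen and between 5.55 and 5.78 in tumor. Kdr, the VEGF receptor 2, rose by 2.88 ± 0.23 and Vwf fell by 1.37 ± 0.15. Of the markers that were not called, Cdh5, Tek and Cldn5 stood at 5.36, 3.72 and 3.98 in spleen and 5.29, 3.62 and 3.80 in tumor.

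Markers of macrophages, dendritic cells and other leukocytes were called in both directions. Over all genes tested 5.73% were called higher and 4.85% lower, or 11.7% and 17.3% with the block. With the block 2 macrophage markers were called higher and 4 lower, and 2 dendritic cell markers higher and 2 lower. Of 9 macrophage markers 1 was called higher (Vcam1, 1.90 ± 0.16) and 2 lower (C1qb, -0.64 ± 0.14, and C1qc, -0.74 ± 0.15). Their mean level lay between 7.99 and 8.04 in spleen and between 8.01 and 8.10 in tumor, but it joins bright and dim genes that moved both ways. C1qb, Mrc1 and Adgre1 stood at 11.03, 10.78 and 10.46 in spleen, and Cd163 and Timd4 at 4.52 and 4.50. Adgre1 (-0.57 ± 0.20) and C1qa (-0.39 ± 0.17) were called lower with the block and not without it (limma adjusted p with the block = 0.00257 and 0.0164). Timd4 (0.52 ± 0.37) was called higher with the block and not without it (0.0215 with the block). Of 9 dendritic cell markers 2 were called higher (Zbtb46, 0.89 ± 0.17, and Dpp4, 0.87 ± 0.20) and 1 lower (Itgax), H2-Ab1, a class II MHC gene, stood at 13.08 ± 0.04 in spleen and 12.93 ± 0.06 in tumor, and the list had mean levels between 8.34 and 8.55 in spleen and between 8.40 and 8.55 in tumor. With 1 array left out the calls of C1qb, C1qc, Zbtb46 and Dpp4 were each lost for 3 or 4 of the 6 arrays, among them spleen 1 and spleen 2 for all 4 genes (limma adjusted p up to 0.132). Mrc1, the mannose receptor of macrophages, had a difference of -0.16 ± 0.29. Mean levels of 9 neutrophil markers lay between 6.92 and 7.30 in spleen and between 6.76 and 6.94 in tumor, with 2 called lower, Mmp9 (-1.12 ± 0.17) and Mmp8 (-0.68 ± 0.16). The Mmp8 call was lost without any 1 array but tumor 3 (limma adjusted p from 0.0631 to 0.141). S100a8 (-0.37 ± 0.20) was called with the block and not without it (adjusted p = 0.0207 and 0.353). Those of 6 T cell markers lay between 5.37 and 5.60 in spleen and between 4.80 and 5.16 in tumor, with 1 called lower, Cd3g (-1.36 ± 0.18), while Cd28 (-0.80 ± 0.22) just missed the threshold (adjusted p = 0.0506, and 0.0046 with the block). Of 6 fibroblast, 4 B cell and 3 NK cell markers 0 were called (by limma 1 fibroblast marker was higher and 1 lower at an unadjusted p under 0.05, and 0 of the others). With the block Col1a1 (-0.47 ± 0.19) was called lower (adjusted p = 0.00649) and Dcn (0.38 ± 0.16) higher (0.0262), while Col1a2, Cd79a, Cd79b, Eomes, Ncr1 and Gzma, with differences from -0.51 to 0.29, were called in neither fit. The part of other cells in the fall of the lipid genes was not tested beyond these values.

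Genes whose level followed Pparg most closely over the 6 arrays were Myo7a, Sec22c and Herpud1 (Pearson r = 0.999 for each), with differences of -0.997, -0.85 and -2.39, all 3 called. For Nr1h3 they were Crip1 (r = 0.99), Hspa1a (r = 0.98) and Acyp2 (r = 0.98), with differences of 0.20, 1.20 and 0.23. None of these 3 was called, but Hspa1a (adjusted p = 0.071) was called with the block (0.00133) and with the arrays numbered 1 and 2 alone (0.0126). These correlations describe 6 arrays that share their group and number, and the genes are the best of all those tested.

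**Figure D4:**
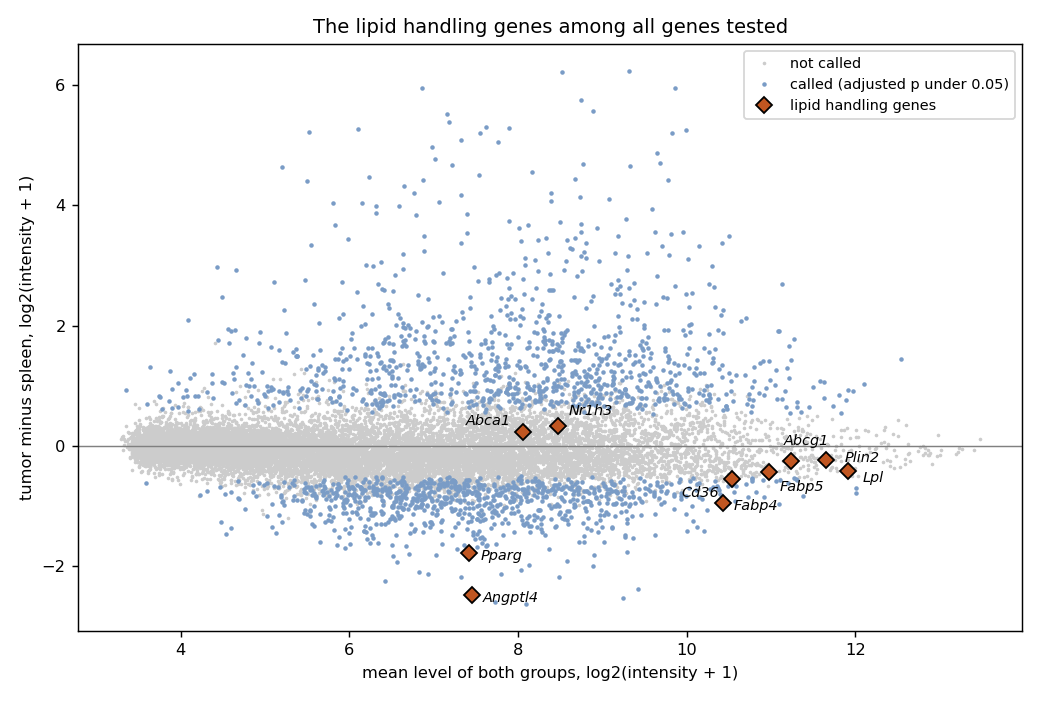
Mean level of both groups against tumor minus spleen for all 18458 genes tested, both as log2(intensity + 1), with called genes in blue and the 10 lipid handling genes as named diamonds. Angptl4 (-2.49) and Pparg (-1.78) lie near the lower edge of the cloud, and the other eight between -0.96 and 0.33.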

How the data were processed

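RNA of 6 sorted cell samples was hybridised to Mouse Gene 2.0 ST arrays, 1 sample per array. The authors deposited 1 linear intensity per probe set and array, made with RMA per the submitters' processing notes; its version, settings and genome build: not given in the sources used here. Deposited values do not share 1 distribution across arrays, which can move small differences. Probe sets were named from the platform annotation: of 41345, 23521 carry 1 symbol, 1814 several (not used) and 16010 none listed. The probe set with the highest mean over the 6 arrays stood for a gene. Genes above the 25th percentile of their array on at least 3 arrays were tested on log2(intensity + 1), which understates changes of dim genes, with limma 3.58.1 in R 4.3.3 (lmFit, eBayes, group as the only term, two-sided). The fit was also run on simulated data with independent noise and no shift of the arrays numbered 3. That run therefore says nothing about such a shift. The genes described and all lists were chosen with earlier results of these data known. Beside the 10 genes, the text names by rule up to 3 called genes per list and direction, or the 2 of smallest p, and the brightest 2 and most changed 2 markers per list. Others (Rxrb, Ppard, Ppara, Nrip1, Ncoa1, Med1, the GM-CSF receptor chains, Pdk4, Srebf1, Mylip, Apoe, Plin1, Plin4, Olr1, Adipoq, Pecam1, Egfl7, Cdh5, Gpihbp1, Tek, Cldn5, Adgre1, C1qa, Cd163, Timd4 and Xcr1) were named after their values were seen. Deviations from group means correlated at 0.36, 0.44 and 0.71 between spleen and tumor arrays of equal number 1, 2 and 3 (across genes, which are not independent), so the number was also fitted as a replicate block. Arrays numbered 1 and 2 correlated as well across numbers (spleen 1 with tumor 2 at 0.46, spleen 2 with tumor 1 at 0.35), and each with number 3 between -0.59 and -0.44, so these values tell number 3 from the others but not 1 from 2; the labels do not say what a number means. Alternatives were other normalizations, pseudocounts, filters, probe set rules, priors, array weights, the arrays numbered 1 and 2 alone, a stricter threshold and each array left out.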

Additional observations from a re-analysis of the deposited data

How the results depend on the processing

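Under the 19 alternatives every difference of the 10 genes kept its direction, and 167 of 190 values kept their side of the threshold, with 6 losing the call (all Fabp4) and 17 gaining it. Pparg (-1.82 to -1.63) and Angptl4 (-2.56 to -2.27) were called throughout. The count called lower among the 10 genes, 3 in the reported fit, was 5 with quantile normalization, median centring, cyclic loess or only the arrays numbered 1 and 2, 6 with the replicate block and 7 with array weights. The count called higher, 0, was 1 with array weights and with the arrays numbered 1 and 2. With single arrays left out these counts ranged from 2 to 3 and stayed at 0. For each alternative that raised a count of the 10 genes, the same count over all 18458 genes tested rose too, as given next. Of all genes, 1057 were called higher, against 1854 with cyclic loess, 2867 with array weights, 2153 with the replicate block and 1387 with the arrays numbered 1 and 2. That count was 651 at an adjusted p under 0.01, and 662 to 1240 with 1 array left out. Those called lower, 895, became 1922 with quantile normalization, 1806 with median centring, 1330 with cyclic loess, 4235 with array weights, 3193 with the replicate block, 1549 with the arrays numbered 1 and 2, 310 at an adjusted p under 0.01, and 293 to 1036 with 1 array left out. The share of higher among called genes, 54.1%, was 40.4% with array weights and 40.3% with the block, but 67.7% at an adjusted p under 0.01 and 64.2%, 67%, 71% and 67.8% without spleen 2, spleen 3, tumor 1 and tumor 2. The causes were not tested. Beyond the genes whose blocked value or call is given, the replicate block changed no call of a gene named here, and of 37 called genes over the 10 and all lists 0 lost the call. With the arrays numbered 1 and 2 alone C1qc lost its call (adjusted p = 0.05001). The mean level of 0 of the 10 genes lay under the lower quartile of tested genes; 3 of the 7 adipocyte markers lay under it.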

Other observations

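Exactly equal values were shared between arrays in a pattern that followed the array numbers. Any pair among the arrays numbered 1 and 2, of either group, held the same deposited value for 5.92% to 8.55% of the 41345 probe sets, as tumor 1 and tumor 2 did for Angptl4, and any pair with an array numbered 3 for at most 0.029%.

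From the arrays numbered 1 and 2 to those numbered 3, some dimmer probe sets rose by more than the brightest probe set of their gene did. One probe set of Fabp5 read 6.77 on spleen 1 and 9.19 on spleen 3, and 6.26 on tumor 2 and 8.53 on tumor 3, and was 2.01 higher on number 3 than on numbers 1 and 2, while the brightest probe set of Fabp5 moved by -0.19 and another one by -0.14. The dimmer probe set of Lpl was 1.57 higher on number 3, against 0.21 for the brighter one. Among genes with several probe sets, 12.8% of 1079 probe sets that were not the brightest stood over 1 unit higher on number 3, against 1.83% of 1038 that were, while the median shifts were close, at 0.35 and 0.30. These sets were chosen after their values were seen, and no cause was tested.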
